A study of Homo sapiens with 9 samples.

Results

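The Iroquois homeobox genes IRX1 to IRX6 are 6 of the 20163 protein-coding genes that the GENCODE 44 annotation, mapped to GRCh37, places on the autosomes and the sex chromosomes. They were taken by name, and all 6 were found. They lie in 2 clusters, IRX4, IRX2 and IRX1 in that order on the short arm of chromosome 5, and IRX3, IRX5 and IRX6 on the long arm of chromosome 16. Their chromatin was compared in mdig KO and WT BEAS-2B cells, an immortalized line from human bronchial epithelium, by ChIP-seq of H3K4me3, H3K27me3, H3K9me3 and H3R8me2a. Both kinds of cells were BEAS-2B transfected with CRISPR-Cas9 carrying a guide to exon 3 of mdig and selected with blasticidin. Colonies that lacked the mdig protein served as KO and colonies that still made it served as WT, so the WT cells had gone through the same transfection and selection. Each mark had 1 library in KO and 1 in WT, a further library was the WT input, and the sources used here do not say how many colonies went into a library. No difference between KO and WT can therefore be set against replicates or tested, and what came with the genotype and what came with the colonies picked cannot be told apart.

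Iroquois genes encode homeodomain transcription factors of the TALE class, which carry a loop of extra amino acids within the homeodomain. They were first described in Drosophila, where they pattern the body wall and sensory organs, and in vertebrates they act in the patterning of the nervous system, heart, limb, kidney and lung. IRX4 is best known as a gene of the ventricular heart muscle, IRX3 and IRX5 as genes of the heart and of fat tissue under enhancers in the neighboring FTO gene, and IRX6 as a gene of retinal bipolar cells in the mouse. IRX1 and IRX2 are expressed in developing lung epithelium. Developmental regulators of this kind are typical targets of Polycomb, which deposits H3K27me3 on silent genes, and where H3K4me3, the mark of active or poised promoters, lies on the same promoter the state is called bivalent. H3K9me3 is the mark of constitutive heterochromatin and of silenced repeats and gene clusters, and H3R8me2a, asymmetric dimethylation of arginine 8, is associated with arginine methyltransferases. IRX2 was of interest to the study because the factor is known as a repressor of chemokine genes.

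The deposited values are islands, stretches of enriched reads given by start and end only. No height or read number comes with them, so the depth itself is unknown. The authors report equal tag numbers within a comparison group, reached by random sampling, and do not say whether the islands were called on these tags. A longer island may reflect more mark or looser calling, which cannot be told apart. An island does not say in what share of the cells the mark is present. The KO libraries covered 1.15 times the length of the WT library for H3K4me3, 1.33 times for H3K27me3, 1.61 times for H3R8me2a and 3.69 times for H3K9me3. On chromosomes 5 and 16 the H3K9me3 ratios were 1.95 and 4.75, and those of H3R8me2a were 0.582 and 2.53. H3K4me3 marked the promoters of 5 of 6 epithelial markers, 4 of 4 mesenchymal markers and 0 of 4 leukocyte markers in KO, and the same numbers in WT, with none at KRT5 in either. Positions without read sequence say nothing of the edit in RIOX2, the gene of mdig. Bases under islands were counted over each gene region, that is the gene body with 5 kb upstream. Gain stands for KO bases of at least 2 times those of WT with 1 kb or more between them, loss for the reverse, and this is a rule of size without a test.

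The starts of all 6 genes lie in DNA rich in CG. In the 2 kb around the start in GRCh37, CG dinucleotides numbered 250 at IRX2, 240 at IRX1, 195 at IRX3, 188 at IRX5, 180 at IRX4 and 144 at IRX6, against a median of 90 over the 20144 protein-coding genes with a sequence. At IRX2 99.6% of genes had fewer and at IRX6 83.3% had fewer. RefSeq promoters (GRCh38.p14, 250 bases before to 50 after a start, 300 in all) were at hand for IRX1, IRX2 and IRX4, 3 of the 6 genes, and each matched GRCh37 exactly at 1 place. They are shown because these genes had an entry, and because their marks over the start range from the same in KO and WT at IRX1 to different at IRX2. That of IRX2, on the minus strand at chr5:2751742-2752041, lay wholly under H3K27me3 in KO and under H3K4me3 and H3K27me3 in WT. That of IRX1, on the plus strand at chr5:3595696-3595995, lay wholly under H3K4me3 and H3K27me3 in KO and in WT. That of the main transcript of IRX4, on the minus strand at chr5:1882990-1883289, lay wholly under H3K27me3 and H3K9me3 in KO and under H3K27me3 in WT. IRX4 has 3 entries, and the others, with starts 57 and 291 bases from that of the gene, lay wholly under H3K27me3 and had no H3K9me3 in KO or in WT. The sequences are written in the direction of transcription, with CG dinucleotides, which read the same on both strands, in capitals.
IRX2: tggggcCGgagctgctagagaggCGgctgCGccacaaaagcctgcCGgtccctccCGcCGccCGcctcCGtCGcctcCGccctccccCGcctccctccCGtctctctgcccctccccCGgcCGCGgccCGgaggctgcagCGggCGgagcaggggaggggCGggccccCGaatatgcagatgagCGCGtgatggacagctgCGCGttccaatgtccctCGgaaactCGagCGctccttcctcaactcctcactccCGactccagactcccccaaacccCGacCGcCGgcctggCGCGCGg
IRX1: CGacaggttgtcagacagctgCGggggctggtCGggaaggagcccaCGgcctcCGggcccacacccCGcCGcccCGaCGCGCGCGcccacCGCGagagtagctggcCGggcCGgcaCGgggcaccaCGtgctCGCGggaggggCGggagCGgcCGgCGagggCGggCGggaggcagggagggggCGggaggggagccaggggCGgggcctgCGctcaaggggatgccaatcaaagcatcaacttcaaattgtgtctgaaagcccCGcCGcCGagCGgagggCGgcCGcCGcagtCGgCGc
IRX4: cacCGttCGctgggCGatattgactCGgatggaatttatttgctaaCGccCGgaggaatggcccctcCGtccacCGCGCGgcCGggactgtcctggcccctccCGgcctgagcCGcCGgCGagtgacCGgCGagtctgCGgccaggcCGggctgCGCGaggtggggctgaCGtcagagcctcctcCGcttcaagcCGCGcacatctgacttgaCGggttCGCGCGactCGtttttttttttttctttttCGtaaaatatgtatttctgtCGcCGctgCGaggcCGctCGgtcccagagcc
The promoter of IRX2 holds 34 CG dinucleotides, that of IRX1 38 and that of the main IRX4 transcript 36, against a median of 14 over 35116 promoters of the same length, of which 96% hold at least 1. GGGCGG, the core of the GC box, searched on both strands, was found 4 times at IRX2, 6 times at IRX1 and not at this start of IRX4, and 45% of all promoters hold it. TATAAA was found in none of these promoters on either strand and is held by 11.5% of all. GGGCGG can overlap the CG in its own middle, and a match is a description of the letters only.

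H3K4me3 lay on 3 of the Iroquois genes. IRX1 was covered over its full region in KO and in WT, IRX3 had 5 kb in KO against 6.38 kb in WT, and IRX2 had none in KO against 7.4 kb in WT. IRX4, IRX5 and IRX6 had no H3K4me3 island in their regions in either library, and the nearest one to the start lay 81.95 kb away in KO and 80.35 kb away in WT for IRX4, and 539.8 kb in KO and 539.6 kb in WT for IRX5. By the rule of size, 1 of 6 genes, IRX2, had a loss, where 2.03% of all protein-coding genes had one, and 0 of 6 had a gain, where 4.09% of all did. At promoters, within 2 kb of the start, H3K4me3 was present at 2 of 6 in KO and 3 of 6 in WT, against 64.3% of all promoters in KO and 64.7% in WT. The promoter of IRX2 was the 1 of 6 with the mark in WT alone, a state that 1.57% of all promoters had.

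**Figure D1:**
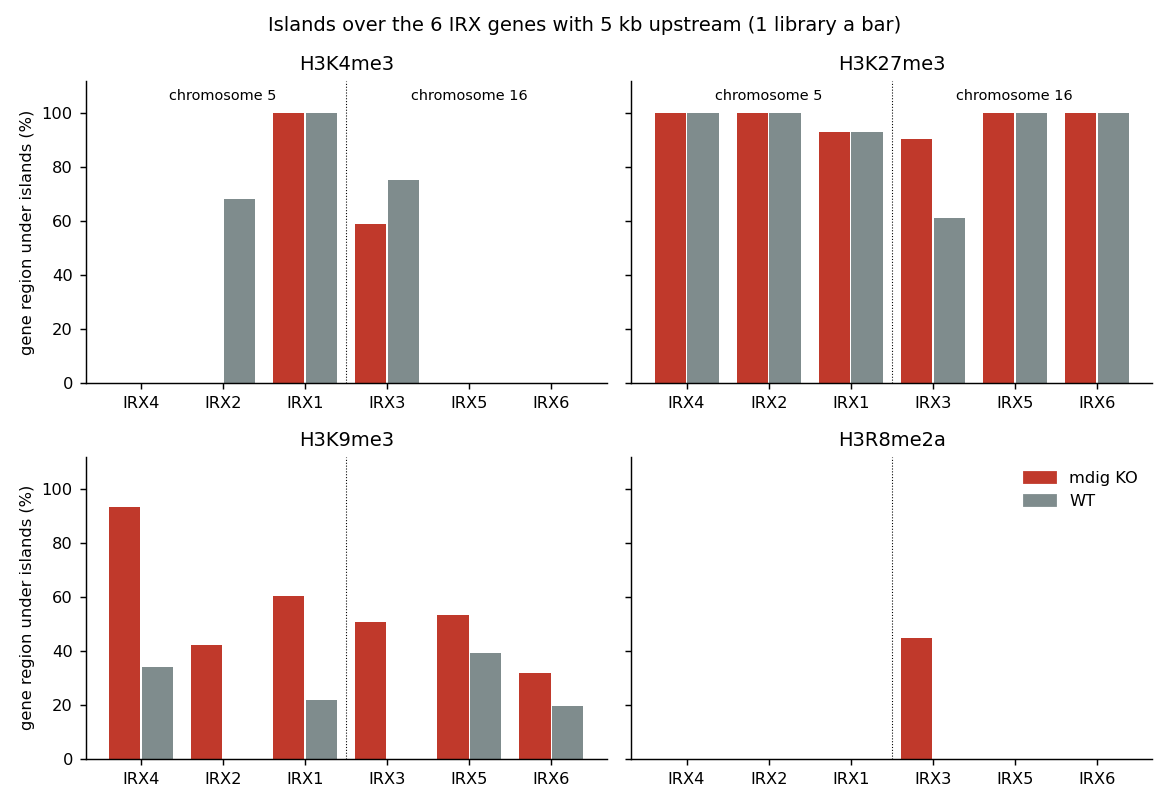
Bars give the percent of each gene region (body with 5 kb upstream) under islands of a mark, KO in red left of WT in gray, with 1 library a bar and no error to draw. H3K27me3 stands at or above 90.6% in KO for all 6 genes, and IRX2 has an H3K4me3 bar in WT alone (68.3%). H3K9me3 is taller in KO for all 6 before any scaling to library totals, an order that turns for IRX1, IRX4, IRX5 and IRX6 with it. For IRX1 and IRX4 the ratio of KO to WT bases is above that of chromosome 5 as a whole.

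H3K27me3 covered every Iroquois gene in both kinds of cells. IRX2, IRX4, IRX5 and IRX6 were covered over 100% of their regions in KO and in WT, and IRX1 over 93.2% in both. IRX3 had 7.68 kb (90.6%) in KO against 5.18 kb (61.1%) in WT, a difference that did not meet the rule. No gene was a gain, where 6.48% of all protein-coding genes were, and none was a loss, where 3.29% were. All 6 regions were covered over 61.1% or more in WT, so none had room for 2 times its WT bases. The absence of gains was therefore fixed by the rule, also for IRX1 and IRX3. At the promoter, 6 of 6 had H3K27me3 in both libraries, as 18.4% of all promoters had. In all 6 the first base of the gene lay under H3K27me3 in KO and in WT, as it did for 81.7% of the promoters with an island in KO and 80.3% in WT.

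H3K9me3 covered more bases in KO than in WT in 6 of 6 genes as deposited, and in 7015 of the 20163 protein-coding genes. This order turned in IRX1, IRX4, IRX5 and IRX6 with KO bases scaled to the library totals. The ratios of IRX1 (2.75) and IRX4 (2.72) were under the 3.69 of the libraries but above the 1.95 of chromosome 5. Those of IRX5 (1.35) and IRX6 (1.62) were under the 3.69 and under the 4.75 of chromosome 16. Scaling by chromosome was not done. The mark lay on 6 of 6 gene regions in KO and 4 of 6 in WT, against 36.6% of all in KO and 17.3% in WT. The median difference over the 6 was 40.4 points of percent covered. The median over all protein-coding genes was 0, and most of those genes had no H3K9me3 island in KO. By the rule of size, 4 of 6 (IRX1, IRX2, IRX3 and IRX4) had a gain, where 27.5% of all had one, and 0 of 6 had a loss, where 0.873% had one. The calls changed with the stretch counted and with the library totals. Over gene bodies alone 0 of 6 genes had a gain. IRX2 and IRX3 had no H3K9me3 in the body in KO or in WT, and IRX1, with 2.52 kb in KO against 2.32 kb in WT, and IRX4, with 9.27 kb in KO against 5.07 kb in WT, were under the factor of 2. The body of IRX4, 9.824 kb long, has no room for 2 times its WT bases. The same holds for IRX5, with 2.2 kb in WT in a body of 3.621 kb, so neither could be called a gain there. With KO bases multiplied by 0.271, which gives both H3K9me3 libraries the same total length, IRX2 (1.24 kb) and IRX3 (1.16 kb) stood just above the 1 kb that a gain needs where WT has none, IRX5 and IRX6 became losses, and IRX1 and IRX4 had fewer bases in KO than in WT without a call.

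Within 2 kb of the start, H3K9me3 was present at 5 of 6 Iroquois promoters in KO and at 1 of 6, that of IRX5, in WT. Of all promoters, 11.1% had it in KO and 2.85% in WT. The 4 promoters marked in KO alone were those of IRX1, IRX2, IRX3 and IRX4, and 8.37% of all promoters were in this state. This count was taken up after the values were seen, and it was 3 with 1 kb on both sides of the start, 2 with 5 kb and 3 with the start of the main transcript. In 4 of the 5 the island stopped short of the start itself: its nearest edge lay 0.41 kb from the start of IRX2, 0.451 kb from IRX4, 0.702 kb from IRX3 and 1.146 kb from IRX1. The first base of the gene was under H3K9me3 in 1 of 5 Iroquois promoters with an island in KO, IRX5, against 60.9% of the 2239 such promoters among all genes, and in 0 of 1 in WT, against 42.3% of 575. For IRX4, which has 8 transcripts, the start of the main one (ENST00000231357.7) lies 4311 bases inside the gene, and that start was covered in KO.

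**Figure D2:**
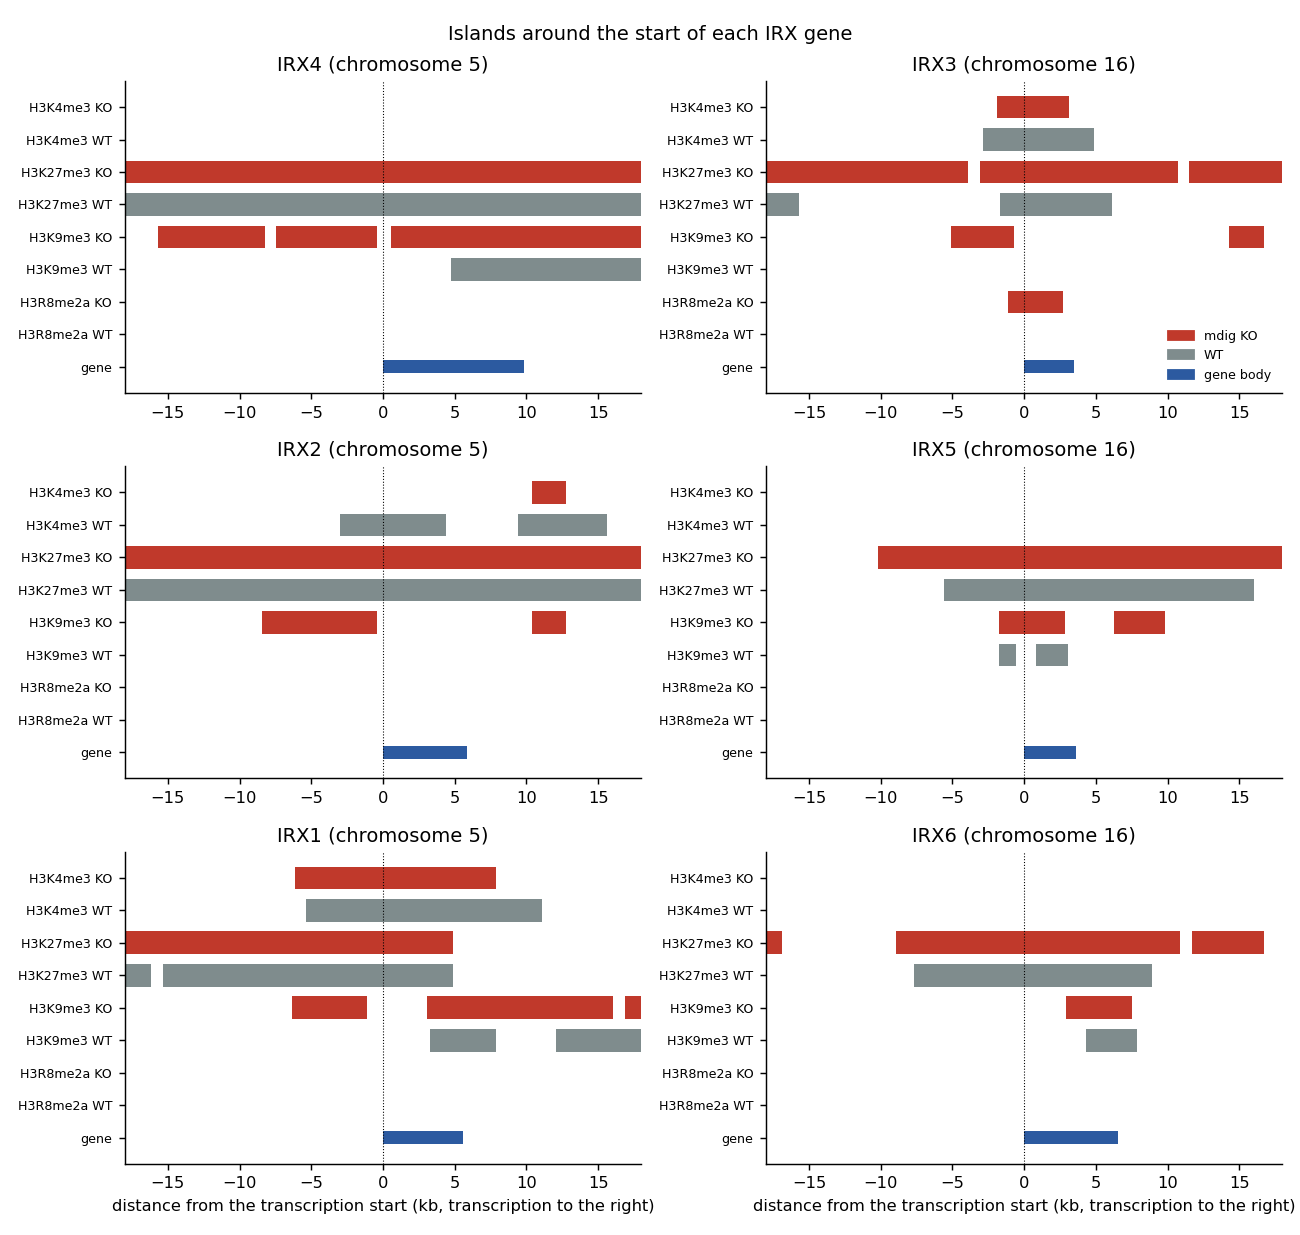
Islands around the start of each gene, on an axis of distance from the start in kb with transcription to the right; each bar is 1 island, KO in red above WT in gray for each mark, and the gene body is in blue. In KO the H3K9me3 islands of IRX1, IRX2, IRX3 and IRX4 end between 0.41 and 1.146 kb from the dotted line of the start, and the WT H3K4me3 island over the start of IRX2 has no KO counterpart.

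H3R8me2a was called on 1 Iroquois gene. IRX3 had an island of 3.8 kb in KO and none in WT, a gain, and the other 5 regions had none in either library. Gains of this mark were called in 20.0% of all protein-coding genes and losses in 8.02%. On chromosome 16, where IRX3 lies, KO covered 2.53 times the WT length of this mark, against 0.582 times on chromosome 5. At promoters it was found in KO alone at 1 of 6, that of IRX3, against 13.1% of all promoters. The nearest H3R8me2a island to IRX2 lay 932.2 kb away in KO and 553.2 kb away in WT.

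IRX2 (ENSG00000170561.13, minus strand, 2745959 to 2751791 on chromosome 5, 4 exons in its main transcript) was the 1 Iroquois gene without H3K4me3 in KO and with it in WT. In KO, no H3K4me3 island touched the gene region. In WT, an H3K4me3 island of 7.4 kb ran from 2747401 to 2754800, reaching 3.009 kb upstream and 4.39 kb downstream of the start. By covered bases this was rank 66 among the losses of H3K4me3 over 20163 genes. It was also a loss over the gene body alone, with none in KO against 4.39 kb in WT. H3K27me3 covered the whole gene in both, by an island of 82.4 kb in KO (2692201 to 2774600), against one of 74.6 kb in WT (2696601 to 2771200). H3K9me3 was found in KO as an island of 8 kb from 2752201 to 2760200, which lies upstream of the gene and leaves the gene body free, and in WT the nearest H3K9me3 island was 44.39 kb from the start.

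The bases of the WT H3K4me3 island at IRX2 can be followed one set of marks at a time. All 7.4 kb carried H3K4me3 and H3K27me3 in WT. In KO, 4.8 kb of them carried H3K27me3 alone and 2.6 kb carried H3K27me3 and H3K9me3. A further 1.99 kb of the region carried H3K27me3 and H3K9me3 in KO and H3K27me3 alone in WT. The stretch without H3K4me3 in KO was thus longer than its part under H3K9me3, and the sequence printed for IRX2 lies in the part with H3K27me3 alone. A second H3K4me3 island lay 3' of the gene, 2.4 kb long in KO (2739001 to 2741400), against 6.2 kb in WT (2736201 to 2742400). The KO library of H3K9me3 had an island with the same edges as this KO island of H3K4me3, and whether one library carried reads of the other was not tested.

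Among all promoters, 1660 (8.23%) carried both H3K4me3 and H3K27me3 in KO and 1720 (8.53%) did in WT. Of the 1720, 207 (12.0%) had no H3K4me3 island at the promoter in KO. For the Iroquois genes this was 1 of the 3 promoters with both marks in WT, IRX2, while IRX1 and IRX3 held both marks in KO and in WT. Genes with a loss of H3K4me3 and a gain of H3K9me3 numbered 152 (0.754%), IRX2 among them. The same calls as IRX2 in all 4 marks, with H3K4me3 at the promoter in WT alone, were shared by 45 of the other 20162 genes (0.223%). Nearest to it by the sum of absolute differences in percent covered over the 8 libraries were NKX2-3, with a sum of 4.01 points, and HMX2, with 31.4, both homeobox genes on chromosome 10. C2CD4C followed with 43.7 points, EEF1A2, a translation elongation factor of neurons and muscle, with 44.2, and ADRA2A, an adrenergic receptor, with 58.2. NKX2-3 had no H3K4me3 in KO against 5.68 kb in WT, 8.58 kb of H3K27me3 in both, and 3.8 kb of H3K9me3 in KO against none in WT.

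IRX1 (ENSG00000170549.4, plus strand, 3595946 to 3601517) kept H3K4me3 at its start in KO. Its H3K4me3 island was 14 kb in KO (3589801 to 3603800), rank 645 by length among 17503 islands, against 16.4 kb in WT (3590601 to 3607000), rank 239 among 17219. Upstream of the gene, H3K27me3 reached 37.3 kb from the start in KO without a break, against 15.3 kb in WT, where a second island of 6.6 kb lay from 22.7 to 16.1 kb upstream. H3K9me3 had 6.37 kb of the region in KO and 2.32 kb in WT, a ratio of 2.75, against 1.95 on all of chromosome 5. With the KO bases scaled to the library totals the difference turned to -0.592 kb. The KO bases lay on both sides of the start, from 3589601 to 3594800 upstream and from 3599001 to 3612000 over the 3' part of the gene, against 3599201 to 3603800 in WT. Over 4.05 kb of the region, KO had H3K4me3, H3K27me3 and H3K9me3, and WT had H3K4me3 and H3K27me3. Whether all 3 marks were on the same molecules cannot be told from bulk libraries.

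IRX4 (ENSG00000113430.10, minus strand, 1877527 to 1887350) lay inside an H3K27me3 island longer than 99.4% of the islands of KO and 99.7% of those of WT. It was 126.4 kb in KO, rank 133 among 22633 islands, against 127.2 kb in WT, rank 63 among 23394, and both ended at 1956000. H3K9me3 covered 13.8 kb (93.3%) of the region in KO and 5.07 kb (34.2%) in WT, a ratio of 2.72, against 1.95 on all of chromosome 5. With the KO bases scaled to the library totals the difference was -1.33 kb. The KO island over the gene body, from 1846601 to 1886800, was 40.2 kb long and rank 125 among 32264. In WT this stretch held 2 islands of 14 kb each, 1853801 to 1867800 and 1868601 to 1882600, and the start of the main transcript at 1883039 lay outside them. Over 8.75 kb, or 59% of the region, KO had H3K27me3 with H3K9me3 and WT had H3K27me3 alone.

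IRX3 (ENSG00000177508.12, minus strand of chromosome 16, 54317216 to 54320699) had all 4 marks in KO and 2 in WT. H3K4me3 formed an island of 5 kb in KO (54317601 to 54322600), against 7.8 kb in WT (54315801 to 54323600), so both edges lay further in. H3K27me3 over the start was 13.8 kb in KO (54310001 to 54323800), against 7.8 kb in WT (54314601 to 54322400). A second KO island, 86.8 kb long from 54324601 to 54411400, began 3.902 kb upstream of the start, and in WT the next island upstream was 15.7 kb from the start and 5.2 kb long. H3K9me3 lay upstream in KO alone, from 54321401 to 54325800. The KO island of H3R8me2a ran from 54318001 to 54321800, wholly within the H3K4me3 islands of both libraries. It met the H3K9me3 island over 0.4 kb.

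IRX5 and IRX6 carried the repressive marks alone. At IRX5 (ENSG00000176842.16, plus strand, 54964777 to 54968397), H3K27me3 formed an island of 30.2 kb in KO and 21.6 kb in WT. H3K9me3 at IRX5 was 1 island of 4.6 kb across the start in KO (54963001 to 54967600), against 2 islands in WT, 1.2 kb upstream (54963001 to 54964200) and 2.2 kb downstream (54965601 to 54967800), with a gap over the start. At IRX6 (ENSG00000159387.8, plus strand, 55358115 to 55364668), H3K27me3 formed an island of 19.8 kb in KO and 16.6 kb in WT. H3K9me3 at IRX6 lay over the 3' end of the gene, 4.6 kb long in KO (55361001 to 55365600), against 3.6 kb in WT (55362401 to 55366000). Neither gene was called for any mark, although IRX6 was a gain of H3K9me3 with a factor of 1.5 or with 5 kb on both sides of the start.

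Between the genes the clusters differed in their make-up. The chromosome 5 window (1877527 to 3601517, 1724 kb) was under H3K27me3 over 78% in KO and 69.8% in WT, a difference of 8.19 points that turned to -11.3 with the KO bases scaled. With KO bases multiplied by 0.75, a window 69.8% covered in WT had little room to stand above WT. The H3K27me3 ratio of KO to WT was 1.12 in this window, against 1.21 on all of chromosome 5. H3K9me3 covered 26.1% of the chromosome 5 window in KO and 14.9% in WT, a difference of 11.2 points that turned to -7.84. Its ratio of 1.75 was under the 1.95 of all chromosome 5. The chromosome 16 window (54317216 to 55364668, 1047 kb) was under H3K27me3 over 49.2% in KO and 29.9% in WT, 19.2 points more, and 6.92 points more when scaled. Its H3K27me3 ratio was 1.64, against 1.44 on all of chromosome 16. H3K9me3 covered 3.48% of the chromosome 16 window in KO and 1.11% in WT, 2.37 points more, which turned to -0.171, and its ratio of 3.13 was under the 4.75 of the chromosome. The intergenic stretch from IRX4 to IRX2 had H3K9me3 over 25.3% in KO and 12.6% in WT, and that from IRX2 to IRX1 over 25.1% in KO and 17.1% in WT. On chromosome 16 the stretch from IRX3 to IRX5 had 46.5% under H3K27me3 in KO and 29.1% in WT, and that from IRX5 to IRX6 had 50% in KO and 26.9% in WT.

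**Figure D3:**
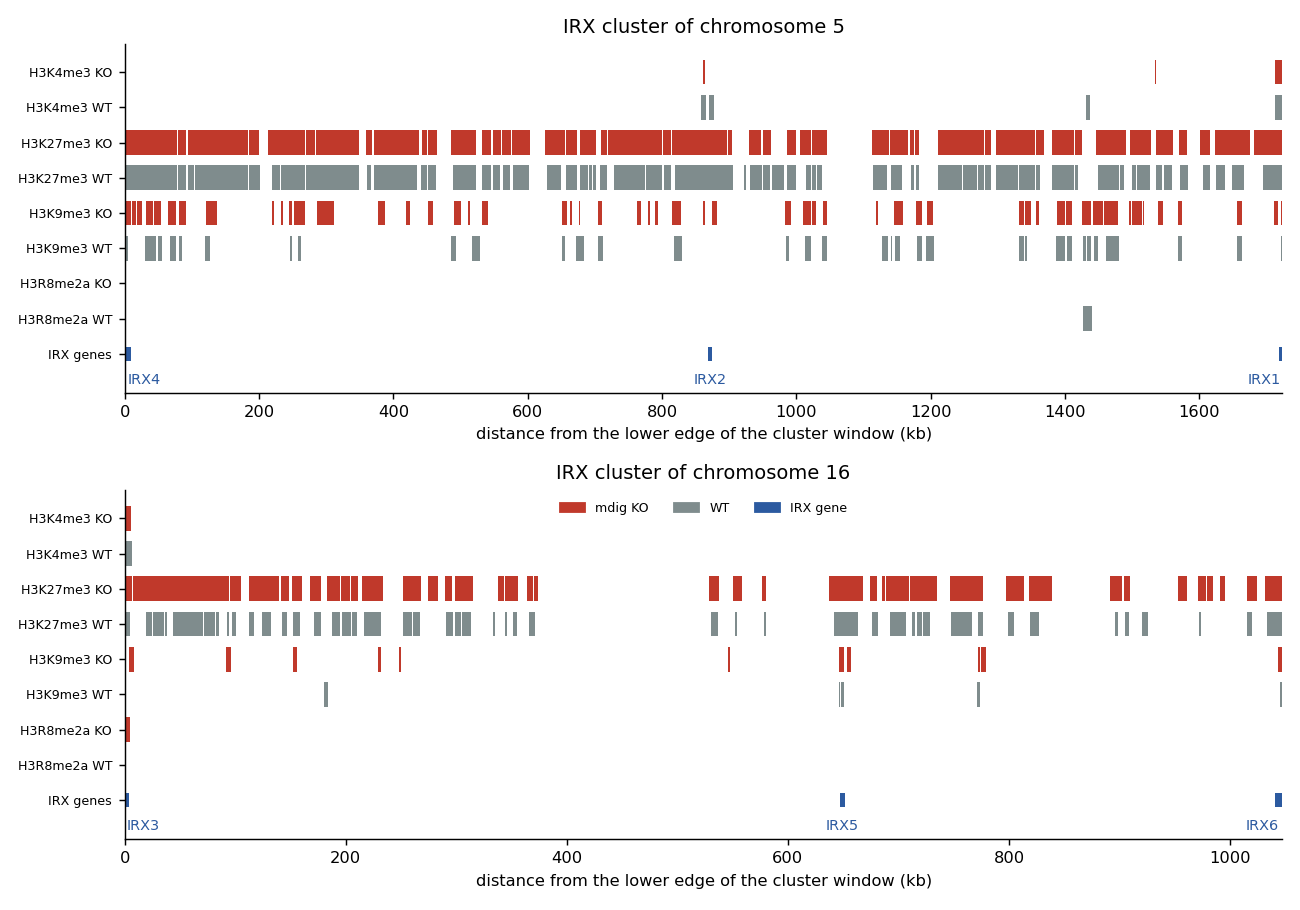
All islands of the 4 marks across the 2 cluster windows, on an axis of distance from the lower edge of the window in kb, KO in red above WT in gray, with the IRX genes in blue below. H3K27me3 fills 78% of the chromosome 5 window in KO and 69.8% in WT, in fewer islands (50 in KO, 66 in WT), and H3K9me3 covers 26.1% of that window in KO, against 3.48% of the chromosome 16 window; with KO bases scaled to library totals the KO excess over WT turns in H3K27me3 on chromosome 5 and in H3K9me3 on both.

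H3K27me3 came in fewer islands in KO. The chromosome 5 window had 50 islands in KO and 66 in WT, and the chromosome 16 window had 38 in KO and 46 in WT. For H3K9me3 there were 53 islands in KO and 33 in WT on chromosome 5, of which 24 in KO and 3 in WT met no island of the other library. On chromosome 16 there were 11 in KO and 5 in WT, of which 8 in KO and 1 in WT met none. The H3K9me3 bases found in KO alone lay mostly on chromatin with H3K27me3 in WT: 225.4 of 247.4 kb (91.1%) on chromosome 5, whose window was 69.8% under WT H3K27me3, and 18 of 29.4 kb (61.2%) on chromosome 16, whose window was 29.9% under it. Of the same bases, 10.2 kb on chromosome 5 and 2.2 kb on chromosome 16 lay on WT H3K4me3. The H3K27me3 bases found in KO alone were 176.8 kb on chromosome 5 and 212.8 kb on chromosome 16, of which 141.4 and 207.4 kb had no mark in WT and no other mark in KO.

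As sets of marks, H3K27me3 with H3K9me3 held 22.8% of the chromosome 5 window in KO and 10.7% in WT, and 2.6% of the chromosome 16 window in KO and 0.694% in WT. H3K27me3 alone held 54.4% in KO and 57.7% in WT on chromosome 5, and 46.1% in KO and 28.8% in WT on chromosome 16. No island of any mark was found over 19.1% in KO and 25.9% in WT on chromosome 5, and over 50.1% in KO and 69.5% in WT on chromosome 16. The same set of marks was found in KO and WT over 70% of the chromosome 5 window and 75.5% of the chromosome 16 window. One intergenic site differed in both remaining marks, and it was chosen after its values were seen. Between IRX2 and IRX1, KO had no H3R8me2a and no H3K4me3, against an H3R8me2a island of 12.6 kb in WT (3305001 to 3317600) around an H3K4me3 island of 5.6 kb (3309001 to 3314600). It was the 1 H3R8me2a island of the chromosome 5 window, and H3K9me3 covered 11.2 kb of it in KO and 10.6 kb in WT. Over all of chromosome 5, H3R8me2a covered less in KO than in WT, at a ratio of 0.582.

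**Figure D4:**
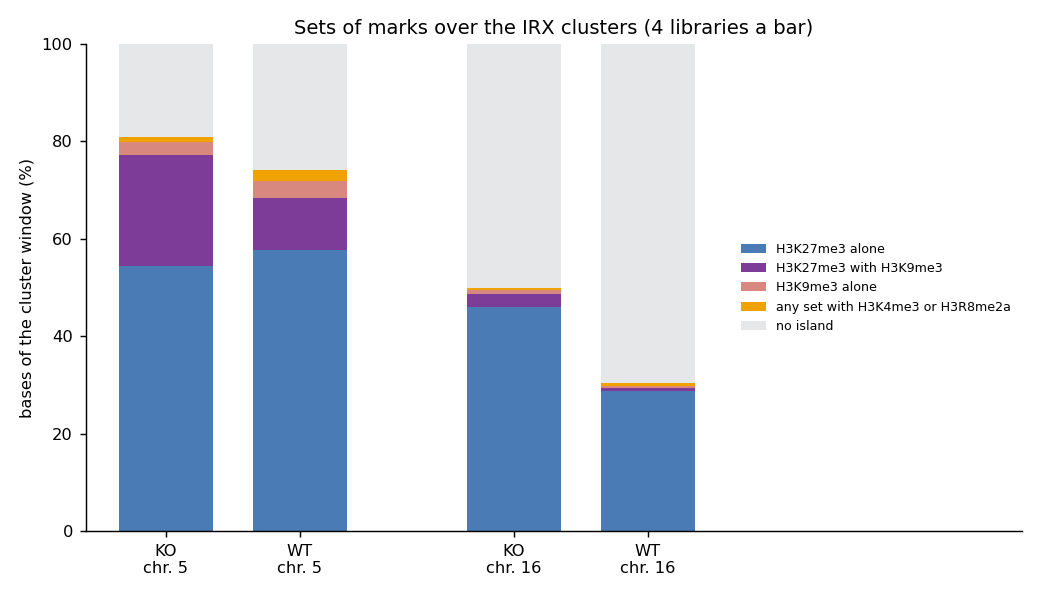
Stacked bars give the percent of the bases of each cluster window under each set of marks, KO left of WT for chromosome 5 and then chromosome 16, each bar drawn from 4 libraries. The purple part, H3K27me3 with H3K9me3, is 22.8% in KO and 10.7% in WT on chromosome 5, and the gray part without an island is 50.1% in KO and 69.5% in WT on chromosome 16.

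Most of the protein-coding neighbors outside the clusters had H3K4me3 at the promoter, 7 of 8 in KO and in WT. Of all promoters, 64.3% had it in KO and 64.7% in WT. The 8 neighbors were NDUFS6, MRPL36, LPCAT1 and ADAMTS16 on chromosome 5 and RPGRIP1L, FTO, MMP2 and LPCAT2 on chromosome 16. All 8 had H3K4me3 somewhere in the region, as 72% of all genes had in KO and 72.3% in WT. None had a gain or a loss of it or of H3K27me3. H3K27me3 lay at 3 of the 8 promoters in both libraries, those of LPCAT1, ADAMTS16 and MMP2, where 18.4% of all promoters had it in both. MMP2 had no H3K4me3 within 2 kb of its outermost annotated start, but 6.4 kb in KO and 6.6 kb in WT elsewhere in its region. Starts of single transcripts were not checked for the neighbors or for the TALE genes below. H3K27me3 covered 62.1% of the MMP2 region in KO and 36.2% in WT. LPCAT1, an acyltransferase of lung surfactant lipid, had 64.2 kb of H3K9me3 in KO against 22.2 kb in WT, a gain, and LPCAT2 had none in KO against 1.8 kb in WT, a loss. MMP2, a gelatinase, was a gain of H3R8me2a with 6.2 kb in KO against none in WT. ADAMTS16 was a loss of it with none in KO against 32.6 kb in WT. Both calls had the direction of their chromosome, with H3R8me2a ratios of KO to WT of 2.53 on chromosome 16 and 0.582 on chromosome 5. The products of the 12 other TALE homeobox genes include the MEIS and PBX cofactors of HOX proteins. In their regions all 12 had H3K4me3 and 5 had H3K27me3 in KO and in WT, again with no call in either mark. H3K27me3 lay in 28.3% of all gene regions in KO and 27.6% in WT. H3K4me3 lay at 11 of the 12 TALE promoters and H3K27me3 at 4, in KO and in WT, beside the shares of all promoters given above. H3K9me3 differed by a median of 0.832 points over the 12, and PKNOX2 was a gain with 52.4 kb in KO against 5.4 kb in WT. H3R8me2a gains were called in 4 of the 12 (MEIS3, PKNOX1, PKNOX2 and TGIF2), where 20.0% of all genes had one, and a loss in 1, MEIS1, where 8.02% had one. These genes differ in length from the Iroquois genes, and the difference between the lists was not tested.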

How the data were processed

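ChIP-seq of H3K4me3, H3K27me3, H3K9me3 and H3R8me2a was analysed in KO and WT BEAS-2B cells (8 libraries, 1 per mark and genotype), and the WT input was not used. The authors aligned the reads with BWA to hg19, extended them and brought the samples of a comparison group to equal tag numbers. The submitters' processing notes name SICER 1.1. No version of BWA is stated in those sources. Deposited values are island positions, called per library, with no height, score or count. Depth is therefore unknown and no interval is given. The 8 sets hold 141489 islands on a 200-bp grid, and the 63759 merged regions of the deposited data were not used for values.

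Islands were placed on GENCODE 44 genes mapped to GRCh37 with Python 3.11.15 and numpy 2.4.6, and figures were drawn with matplotlib 3.10.9. The code was tested on simulated data. Covered bases were summed over gene body and 5 kb upstream. Promoters were 2 kb on both sides of the start, and overlap needed 1 base. RefSeq promoters (GRCh38.p14) were placed in GRCh37 by exact match. The table used had no entry for IRX3, IRX5 and IRX6.

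The genes named are the 6 members, IRX-named RNAs and CRNDE within the clusters, 8 flanking genes, 12 other TALE genes and the 5 genes nearest to IRX2 among those with its calls, with RIOX2 as the edited gene, KRT5 from the epithelial markers and LINC01019, chosen after its values were seen. Members and lists were chosen with earlier results of these data known. The alternatives were the gene body alone, 5 kb on both sides of the start, a factor of 1.5, equal total lengths by scaling of KO bases, exclusion of islands under 1 kb, merging of islands up to 1 kb apart, windows with 100 kb more on each side, promoters of 1 kb and 5 kb, and an overlap of at least 200 bases. The alternatives for H3K9me3 promoters were chosen after seeing the data. RNA-seq was not analysed here.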

Additional observations from a re-analysis of the deposited data

How the results depend on the processing

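Of 87 repeats of the counts and cluster values under an alternative, 74 stayed within 1.5 times or kept their direction and size, 10 moved and 3 turned. Of 120 repeats of the values of single genes, 97 stayed, 21 moved without a turn of a called value, and 2 called values turned. With KO bases scaled to the same total length, the difference of KO minus WT turned in H3K27me3 on the chromosome 5 cluster (-11.3 points) and in H3K9me3 on both clusters (-7.84 points on chromosome 5 and -0.171 on chromosome 16), and in H3K9me3 of IRX1 (-0.592 kb) and IRX4 (-1.33 kb), and of IRX5 (-2.15 kb) and IRX6 (-1.28 kb), which had no call before scaling. The same scaling gave 2 gains and 2 losses of H3K9me3 among the 6 genes, 6.92 points of H3K27me3 and 0.225 points of H3R8me2a on the chromosome 16 cluster, by its construction, since each KO base then counts for less. The scaling factor came from the whole libraries, and the H3K9me3 ratios of IRX1 and IRX4 lay above that of chromosome 5. Over gene bodies alone 0 genes had a gain of H3K9me3, and the bodies of IRX4 and IRX5 had no room for 2 times their WT bases. With 100 kb more on each side of the windows, the differences were -0.194 points (chromosome 5) and -0.224 points (chromosome 16) of H3K4me3, 3.56 points of H3K9me3 on chromosome 16 and -0.0728 points of H3R8me2a on chromosome 5, and the cause was not tested. Promoters with H3K9me3 in KO alone numbered 2 of 6 with 5 kb on both sides of the start, since WT islands of IRX1 and IRX4 then fall in the window. No replicate could be left out with 1 library for each mark and genotype. No paired analysis was possible because each mark had 1 library in KO and 1 in WT.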

Other observations

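The clusters also hold RNA genes, which share islands with their neighbors because the marks have no strand. Of 23 genes in the chromosome 5 window, 17 were lncRNA genes, and gains of H3K9me3 were called in 12 of the 23, losses of H3K4me3 in 4, and gains of H3K4me3 and of H3K27me3 in 1 each. Among all protein-coding genes these shares were 27.5% for gains of H3K9me3, 2.03% for losses and 4.09% for gains of H3K4me3, and 6.48% for gains of H3K27me3. Only 3 of the 23 were protein-coding, and overlapping regions count the same island more than once. IRX2-DT, the lncRNA that starts next to IRX2 on the other strand (2752245 to 2755511), had no H3K4me3 in KO against 7.4 kb in WT, from the same island as IRX2, and 3.31 kb of H3K9me3 in KO against none in WT. Beside IRX2 and IRX2-DT, a further lncRNA gene had its loss of H3K4me3 from that island too, with none in KO and 3.22 kb in WT. IRX4-AS1, antisense to IRX4, had 6.44 kb of H3K9me3 in KO and 4.17 kb in WT. The gain of H3K4me3 was in LINC01019, chosen after its values were seen, with 1.8 kb in KO and none in WT.

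Of 21 genes in the chromosome 16 window, 15 were lncRNA genes, and 7 had a gain of H3K27me3, 5 of H3K9me3 and 3 of H3R8me2a, with no loss of any mark, where the gains among all protein-coding genes were 6.48% for H3K27me3, 27.5% for H3K9me3 and 20.0% for H3R8me2a. The 3 gains of H3R8me2a were in IRX3 and its neighbors and came from 1 island, on a chromosome with a KO to WT ratio of 2.53 for this mark. CRNDE, the lncRNA next to IRX5, had 17.3 kb of H3K27me3 in KO and 11.1 kb in WT, and 4.6 kb of H3K9me3 in KO and 3.4 kb in WT, and no call.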
